A study of Mus musculus with 8 samples.

Results

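The myosin heavy chains are the motor subunits of myosin II, and 9 of their genes (*Myh3*, *Myh6*, *Myh7*, *Myh7b*, *Myh8*, *Myh9*, *Myh10*, *Myh11* and *Myh14*) were followed in the hearts of WT mouse embryos and of embryos labelled SIRT1 KO. SIRT1 is an NAD-dependent protein deacetylase. Every non-control array probe whose accession RefSeq assigns to one of these genes was kept, which gave 14 probes of 8 genes out of 41174 probes and 19096 named genes on the array. No probe matched *Myh7b*. Whole hearts were taken at E18.5 and their RNA was run on Agilent one-color arrays, 1 heart per array, with 4 WT hearts and 4 SIRT1 KO hearts. The strain is C57BL/6 in the labels and C57BL/6J in the methods, the mice were untreated and on a chow diet, and per the methods the embryos came from heterozygous crosses and included both sexes. SIRT1 KO is a whole-body germ-line knockout, so that every cell type of the embryo carries the deletion and not the cardiomyocytes alone. The study profiled these hearts to look for molecular changes that accompany the misaligned cardiomyocytes of SIRT1 KO embryos. Levels are given as log2 signal, the log2 of a probe's processed intensity minus that of the 75th percentile of its array, so that 0 is the 75th percentile and 1 unit is a doubling, and since probes need not respond alike, no order of levels is read between different probes.

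Several facts of the whole series bear on every value. The WT arrays lie on 1 slide and the SIRT1 KO arrays on the other, scanned on different days, so that genotype cannot be told apart from slide and scan day, and neither slide gives a comparison of its own. Of the 2 *Sirt1* probes neither was lower past the threshold in the hearts labelled SIRT1 KO (log2 fold changes 0.54 and -0.11, limma adjusted p = 0.0323 and 0.589), so the genotypes are those of the labels, and where these probes lie in the transcript is not analysed here. Heart muscle was present in all hearts, with 8 of 8 cardiomyocyte marker genes well above background (the flag that Agilent's software gives a spot that stands clear of its background) on all 8 arrays. Of 7 liver markers 5 were tested and all 5 were higher in the hearts labelled SIRT1 KO, none past the threshold. Their summed signal, in multiples of the 75th percentile, ran from 10.7 to 26.5 in WT and from 12.4 to 114 in SIRT1 KO hearts, and their part in the results was not tested. RNA of a whole heart does not tell fewer cells of a type from less RNA per cell.

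Myosin heavy chains pair into dimers whose heads pull on actin and whose tails assemble into filaments. In the sarcomere these are the thick filaments, built in heart muscle from α-myosin (*Myh6*), the fast isoform that takes over in the mouse ventricle after birth under thyroid hormone, and β-myosin (*Myh7*), the slow isoform of the fetal ventricle. *Myh3* and *Myh8* encode the embryonic and perinatal isoforms of developing skeletal muscle, *Myh11* the smooth muscle isoform of vessel walls, and *Myh9*, *Myh10* and *Myh14* the nonmuscle chains IIA, IIB and IIC, which serve cell shape, division and migration.

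On 1 of 2 probes each, β-myosin (*Myh7*) and nonmuscle *Myh14* were higher past the threshold in the hearts labelled SIRT1 KO, and their other probes did not pass. Embryonic *Myh3* had positive log2 fold changes on both probes without passing, and α-myosin and nonmuscle *Myh9* differed by less than their spread. Of the 14 probes 12 were well above background on all 8 arrays and 13 were tested with limma, 9 of them with a positive and 4 with a negative log2 fold change (SIRT1 KO minus WT). An adjusted p under 0.05 was reached by 2 of the 13 (15.4%), 1 of *Myh7* and 1 of *Myh14*, both higher, where 4.88% of all 25615 probes tested reached it. The *Myh14* probe was tested only because it stood above background in the hearts labelled SIRT1 KO, and therefore had to differ, so the count is a description and not evidence about the family. Among the 12 probes above background on all arrays, which leave that probe out, the genotypes did not overlap in 5. The share was 13.7% of 25535 tested probes, a wider set that includes probes above background on fewer arrays. The median log2 fold change was 0.22 over the 13 probes, 0.19 over the 12 probes above background on all arrays and 0.01 over all probes tested. The median over the 13 depended on the processing, with 0.11 against 0.05 over all probes with normexp background correction, 0.09 against -0.12 with median scaling and 0.00 against -0.21 with no scaling. Between 7 and 11 of the 13 probes were higher, a count that includes the *Myh14* probe that had to differ.

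**Figure D1:**
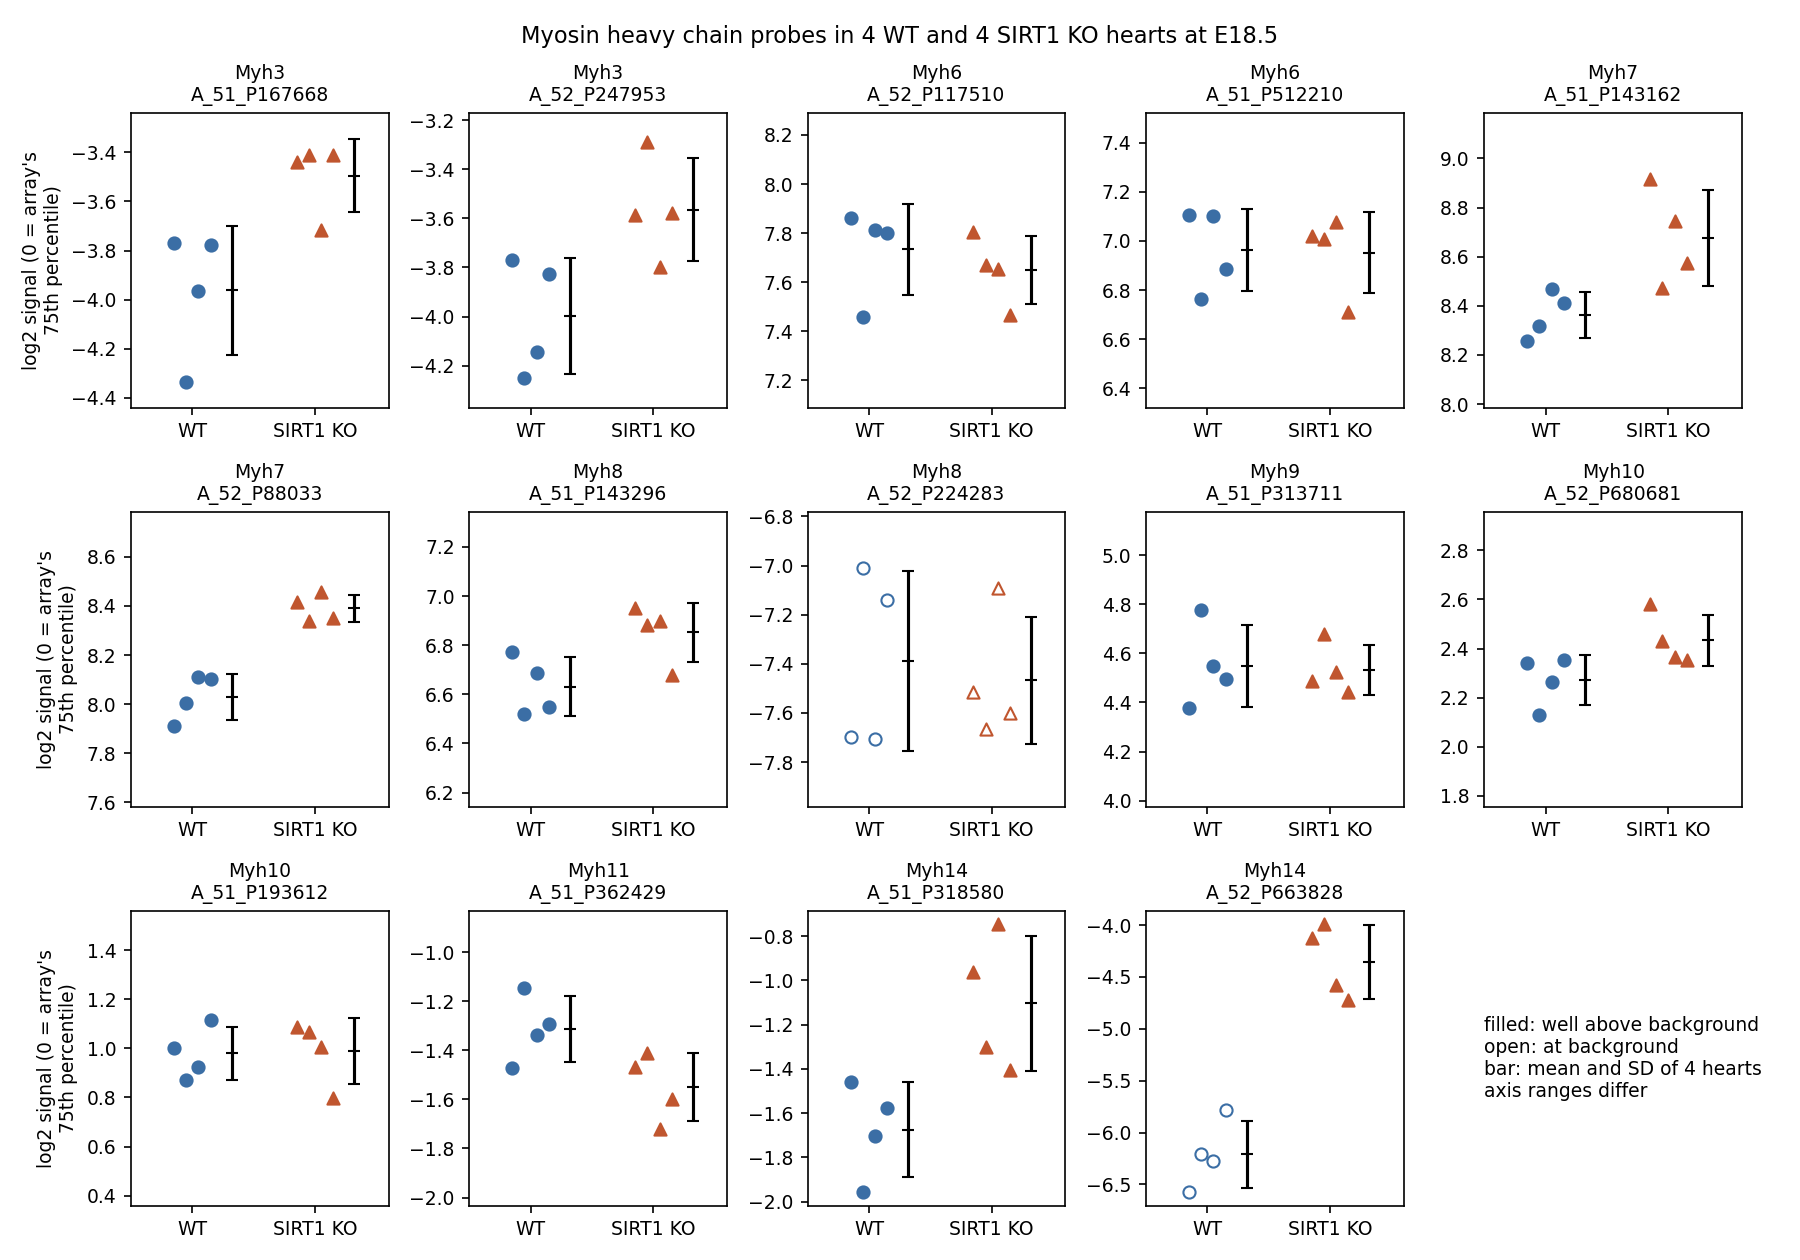
Log2 signal (0 is the 75th percentile of the array) of the 14 myosin heavy chain probes in each of 4 WT hearts (circles) and 4 SIRT1 KO hearts (triangles), with the mean and SD beside them; open symbols are at background and the axis ranges differ between panels. Both *Myh7* probes and both *Myh14* probes show no overlap of the genotypes, and the second *Myh8* probe is at background in all 8 hearts.

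*Myh7* lies next to *Myh6* on chromosome 14, with only noncoding or predicted genes listed between them. Both promoters are shown because these genes divide the thick filament of the heart muscle cell between them. The windows are RefSeq sequence of GRCm38.p6, 250 bases before to 50 after a listed transcription start, 5′ to 3′ on the minus strand, chr14:54966558-54966857 for *Myh6* and chr14:54994577-54994876 for the more upstream of 2 listed *Myh7* starts. Capitals mark the M-CAT core GGAATG (bound by TEAD factors), the TATA box TATAAA and the CCAAT box CCAAT, each searched on both strands.
Myh6 promoter: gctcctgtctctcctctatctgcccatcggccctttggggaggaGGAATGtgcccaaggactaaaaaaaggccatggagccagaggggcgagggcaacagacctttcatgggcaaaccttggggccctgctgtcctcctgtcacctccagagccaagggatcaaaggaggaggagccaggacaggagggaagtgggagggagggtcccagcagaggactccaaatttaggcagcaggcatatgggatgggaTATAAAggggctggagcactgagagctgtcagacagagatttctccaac
Myh7 promoter: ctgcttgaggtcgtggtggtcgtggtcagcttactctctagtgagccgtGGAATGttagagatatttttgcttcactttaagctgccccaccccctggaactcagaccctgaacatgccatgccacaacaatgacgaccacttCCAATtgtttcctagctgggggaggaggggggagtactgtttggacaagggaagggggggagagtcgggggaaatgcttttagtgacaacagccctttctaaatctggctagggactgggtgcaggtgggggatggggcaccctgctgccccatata
Both of these windows hold 1 M-CAT core, at positions -206 to -201 of *Myh6* and -201 to -196 of *Myh7*, a motif found in 14.7% of all 32851 promoter windows of this length. The TATA box occurs at the listed start of *Myh6* (13.6% of all windows) and the CCAAT box at -107 to -103 of *Myh7* (37.4% of all windows). The window of the other *Myh7* start holds a CCAAT box at -184 to -180 and no M-CAT core, so the shared motif depends on the start chosen. No other promoter of the 8 genes with a window holds an M-CAT core except that of *Myh10*. These are matches of letters and not bound sites.

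β-myosin was measured by 2 probes. On the brighter one (A_51_P143162) the log2 signals were 8.26, 8.32, 8.47 and 8.41 in WT replicates 1 to 4 and 8.91, 8.47, 8.75 and 8.57 in the hearts labelled SIRT1 KO. The highest WT heart lay just under the lowest SIRT1 KO heart, and the spread was wider in SIRT1 KO, so that the log2 fold change of 0.31 (SE 0.11, 95% confidence interval 0.07 to 0.55, a 1.24-fold difference) did not pass with limma (adjusted p = 0.136). On the second probe (A_52_P88033) the WT hearts gave 7.91, 8.0, 8.11 and 8.10 and the hearts labelled SIRT1 KO 8.42, 8.34, 8.46 and 8.35. Here the SIRT1 KO hearts lay close together and clear of all WT hearts, and the log2 fold change was 0.36 (SE 0.07, 95% confidence interval 0.19 to 0.53, a 1.28-fold difference, limma adjusted p = 0.0283). Over the 8 hearts the log2 signals of the 2 probes correlated with r = 0.88, and r = 0.72 after each genotype's mean was taken off, as a description of probes that share arrays and scaling.

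The β-myosin difference depended on the processing of the arrays. The brighter probe's log2 fold change was 0.11 with normexp background correction (0.06 above the median of all probes), 0.14 with quantile normalization, 0.19 with median scaling, 0.09 with no scaling and 0.34 with cyclic loess. This probe passed in none of its 20 alternatives. The second probe kept an adjusted p under 0.05 with cyclic loess (log2 fold change 0.39, limma adjusted p = 0.035) and lost it with quantile normalization (0.25, adjusted p = 0.092), median scaling (0.23, adjusted p = 0.111) and no scaling (0.14, adjusted p = 0.215). Median scaling and no scaling differ from the main scaling by 1 shift common to all probes, which moved the median of all probes tested to -0.12 and -0.21, so that they change where 0 lies and not how the probe stands among the others. With 1 heart left out its log2 fold change stayed between 0.32 and 0.39 and passed in 2 of the 8 fits, those without SIRT1 KO replicate 3 and without SIRT1 KO replicate 4. It did not pass when all probes were tested with no filter on dim ones (limma adjusted p = 0.0631), and over all its 19 alternatives it passed in 8. These 8 include the deposited value table, which equals the main input and could not differ.

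α-myosin gave no difference beyond the spread on either probe. On the brighter one (A_52_P117510) the log2 signals were 7.86, 7.46, 7.81 and 7.80 in WT and 7.80, 7.67, 7.65 and 7.47 in the hearts labelled SIRT1 KO. The genotypes overlapped, with the lowest values of both at the same level, and the log2 fold change was -0.08 (SE 0.11, 95% confidence interval -0.34 to 0.17, limma adjusted p = 0.699). The second probe (A_51_P512210) ranged from 6.76 to 7.11 in WT and from 6.71 to 7.08 in SIRT1 KO hearts, with a log2 fold change of -0.01 (95% confidence interval -0.27 to 0.24, limma adjusted p = 0.966) whose sign turned with cyclic loess (0.02).

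Because the scaling of an array cancels in a difference taken within that array, *Myh7* minus *Myh6* was computed for each heart. On the brighter probe of each gene it was 0.39, 0.86, 0.65 and 0.61 in WT replicates 1 to 4 and 1.11, 0.80, 1.09 and 1.11 in the hearts labelled SIRT1 KO. Of the SIRT1 KO hearts 3 lay above all WT hearts, and SIRT1 KO replicate 2 lay under WT replicate 2. The mean difference between the genotypes was 0.40 (1.32-fold; 0.63 ± 0.19 in WT and 1.03 ± 0.15 in SIRT1 KO, SD, n = 4), with p = 0.0571 in an exact permutation test (two-sided), which with 4 hearts each cannot go under 0.0286.

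The other 3 pairings of a *Myh7* with a *Myh6* probe gave differences of 0.33, 0.44 and 0.37. Both pairings with the second *Myh7* probe separated the genotypes fully (exact permutation p = 0.0286 each, 0.0571 after Benjamini-Hochberg adjustment over the 4 pairings), and both pairings with the brighter one did not (adjusted p = 0.0762 and 0.0857 from the same exact test). None of the 4 passed 0.05 after adjustment. With 1 heart left out the main pairing stayed between 0.32 and 0.48. With the mean over both probes of each gene the difference was 0.38 and the genotypes gave the smallest possible p (exact permutation p = 0.0286). With normexp background correction the main pairing gave 0.27 (exact permutation p = 0.0857). Whether *Myh7* and *Myh6* changed unequally thus depends on the probes taken, and the size of the difference also on the background correction. Such a difference would not show which of them moved.

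**Figure D2:**
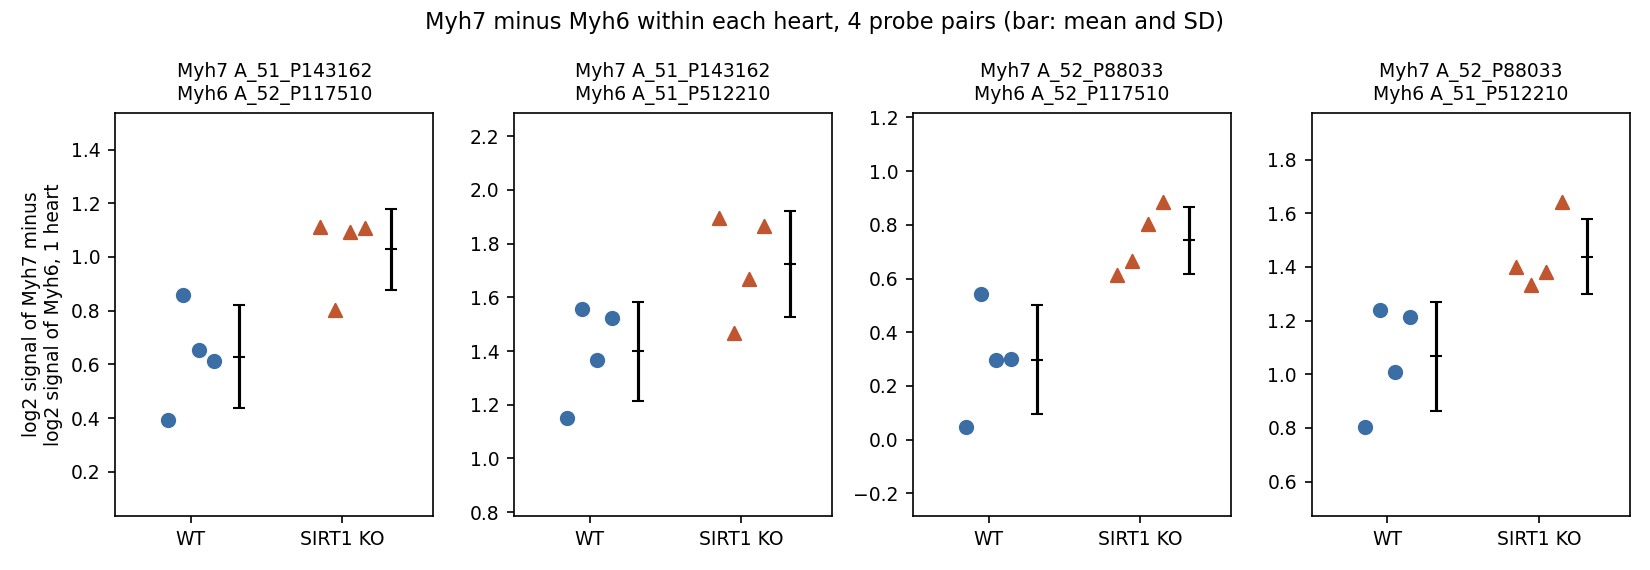
Log2 signal of *Myh7* minus that of *Myh6* within each heart, for 4 pairings of a *Myh7* with a *Myh6* probe, in 4 WT hearts (circles) and 4 SIRT1 KO hearts (triangles) with the mean and SD; each axis spans the same number of log2 units. The SIRT1 KO mean is higher by 0.33 to 0.44 in the 4 panels, and the genotypes do not overlap in the 2 panels with the second *Myh7* probe.

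The 3 heart myosin genes also carry microRNAs with alike seeds within their gene bodies, which these arrays did not measure. They are shown as context, since microRNAs inside a gene are often made from its transcript, and because one of them lies in *Myh7b*, for which no probe was matched. RefSeq places miR-208a-3p in *Myh6* at chr14:54949072-54949093 (minus strand), miR-208b-3p in *Myh7* at chr14:54975710-54975731 (minus strand) and miR-499-5p in *Myh7b* at chr2:155622893-155622913 (plus strand), on GRCm38.p6. Capitals mark the seed, bases 2 to 8, which pairs with target transcripts.
miR-208a-3p: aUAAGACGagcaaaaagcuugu
miR-208b-3p: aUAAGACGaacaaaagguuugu
miR-499-5p: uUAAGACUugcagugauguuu
The seeds of miR-208a-3p and miR-208b-3p match in all 7 bases, and that of miR-499-5p matches them in 6 of 7.

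*Myh3*, the embryonic skeletal isoform, had higher signals in the hearts labelled SIRT1 KO on both of its probes, without passing the threshold. On the brighter probe (A_51_P167668) the log2 signals were -3.77, -4.33, -3.97 and -3.78 in WT and -3.44, -3.41, -3.72 and -3.41 in SIRT1 KO hearts. All WT hearts lay below all SIRT1 KO hearts, although SIRT1 KO replicate 3 came close to WT replicates 1 and 4. The log2 fold change was 0.47 (SE 0.14, 95% confidence interval 0.16 to 0.78, limma adjusted p = 0.0925). The second probe (A_52_P247953) ranged from -4.25 to -3.77 in WT and from -3.80 to -3.29 in SIRT1 KO hearts, overlapping by 1 heart, with a log2 fold change of 0.43 (SE 0.14, limma adjusted p = 0.124). Over the 8 hearts the probes correlated with r = 0.94, and r = 0.85 with each genotype's mean taken off. The brighter probe's log2 fold change lay between 0.25 and 0.35 under the other scalings and passed in 2 of 20 alternatives.

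*Myh8*, the perinatal skeletal isoform, was read differently by its 2 probes. Probe A_51_P143296 was well above background in every heart, at 6.77, 6.52, 6.69 and 6.55 in WT and 6.95, 6.88, 6.90 and 6.68 in the hearts labelled SIRT1 KO. The genotypes overlapped through SIRT1 KO replicate 4, and the log2 fold change of 0.22 (SE 0.09, 95% confidence interval 0.01 to 0.43) did not pass with limma (adjusted p = 0.204). It was 0.09 with median scaling and 0.00 with no scaling, against medians of all probes of -0.12 and -0.21. Probe A_52_P224283 was not well above background on any of the 8 arrays, with log2 signals from -7.71 to -7.01, and was not tested. The same split was seen in the adult fast skeletal gene *Myh4*, named here after its values were seen, where A_52_P602147 was well above background in all hearts (6.06 to 6.54) and A_51_P338072 in none. Sarcomeric myosin genes share long stretches of nearly the same sequence, and which transcripts these probes bind was not tested, so the level of *Myh8* and *Myh4* in these hearts is uncertain.

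Markers of skeletal muscle were read beside both genes. Of 19 listed genes 10 were tested, 6 higher and 4 lower with a median log2 fold change of 0.02 and 3 at an unadjusted p under 0.05 (21.5% of all probes tested), and 5 (*Myf5*, *Myf6*, *Pax7*, *Myh2* and *Myh13*) were at background on all arrays by every probe. In the hearts labelled SIRT1 KO *Myog*, the differentiation factor of skeletal muscle, rose by 0.52 (SE 0.11, limma adjusted p = 0.0291) and *Tnni2*, fast troponin I, by 0.62 (SE 0.12, limma adjusted p = 0.0225), while *Neb*, the thin filament ruler nebulin, fell by 0.81 on the log2 scale (SE 0.12, limma adjusted p = 0.00621). The *Myog* probe lay near background, at -5.46 in WT and -4.94 in SIRT1 KO hearts, and was well above it on only 7 arrays. *Myh1* at -0.71 and *Tnnt3* at -0.36, both named after their values were seen, did not pass (limma adjusted p = 0.42 and 0.32). The summed signal of the list ran from 78.7 to 90.9 times the 75th percentile in WT and from 85.0 to 109 times in SIRT1 KO hearts, a sum that includes the *Myh4* probe above. The part of skeletal muscle in the *Myh3* and *Myh8* signals was not tested.

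Of the nonmuscle chains *Myh14* differed the most. On its brighter probe (A_51_P318580) the log2 signals were -1.46, -1.96, -1.70 and -1.58 in WT and -0.96, -1.30, -0.75 and -1.41 in the hearts labelled SIRT1 KO. All SIRT1 KO hearts lay above all WT hearts, replicate 4 only narrowly, and the log2 fold change was 0.57 (SE 0.16, 95% confidence interval 0.20 to 0.94, a 1.48-fold difference, limma adjusted p = 0.086). It lay between 0.35 and 0.55 under the other scalings, and the probe passed with normexp background correction (0.51, limma adjusted p = 0.0374) and with array weights (0.53, limma adjusted p = 0.0496).

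The second *Myh14* probe (A_52_P663828) stood at background on all 4 WT arrays and well above it on all 4 arrays labelled SIRT1 KO. The log2 signals were -6.58, -6.20, -6.27 and -5.79 in WT and -4.12, -3.99, -4.58 and -4.72 in the hearts labelled SIRT1 KO, with no overlap. A WT level at background is only a limit, so under the deposited background subtraction the SIRT1 KO signal was at least 2.63-fold higher (limma adjusted p = 0.00845 in the fit of all probes with no filter on dim ones), counted against the higher of the lowest signal well above background and the probe's own on each WT array. With normexp background correction the probe's own WT signal set the limit on every WT array, so that only the fitted difference of 0.72 on the log2 scale (1.64-fold) can be given, which is below the 2.63-fold limit, so that limit does not hold for normexp. Without any 1 of the SIRT1 KO arrays the probe was above background on too few arrays to be tested, so its place among the tested probes rests on all 4 of them.

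The *Myh14* promoter is shown because the fitted log2 fold changes of this gene were the largest among the measured members. The window is chr7:44670794-44671093 of GRCm38.p6 on the minus strand, from RefSeq, and capitals mark the CCAAT box, read here as ATTGG since every copy is on the opposite strand.
Myh14 promoter: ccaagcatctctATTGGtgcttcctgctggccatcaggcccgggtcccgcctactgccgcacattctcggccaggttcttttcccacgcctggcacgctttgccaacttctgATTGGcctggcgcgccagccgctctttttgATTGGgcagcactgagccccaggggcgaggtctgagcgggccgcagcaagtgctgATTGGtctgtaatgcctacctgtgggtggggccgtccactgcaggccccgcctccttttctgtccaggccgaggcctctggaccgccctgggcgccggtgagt
It holds 4 CCAAT boxes, at -238 to -234, -138 to -134, -108 to -104 and -53 to -49, and neither an M-CAT core nor the TATA box. Its GC content was 64.7%, against 57.3% in the *Myh6* window and 54.3% in the *Myh7* window above.

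*Myh9*, the chain of nonmuscle myosin IIA, was measured by 1 probe that ranged from 4.38 to 4.78 in WT and from 4.44 to 4.68 in SIRT1 KO hearts. The SIRT1 KO values fell inside the WT range, and the log2 fold change of -0.02 (95% confidence interval -0.24 to 0.21, limma adjusted p = 0.944) turned sign under quantile normalization (0.03) and cyclic loess (0.02). *Myh10*, the chain of IIB and a main nonmuscle chain of the embryonic heart, gave different readings on its 2 probes. On the brighter one (A_52_P680681) the log2 signals were 2.34, 2.13, 2.27 and 2.35 in WT and 2.58, 2.43, 2.36 and 2.35 in the hearts labelled SIRT1 KO. The genotypes touched without overlapping, and the log2 fold change of 0.16 (SE 0.08, 95% confidence interval -0.03 to 0.35, limma adjusted p = 0.311) turned to -0.06 without scaling, a fit in which all probes were lowered alike to a median of -0.21. On the second probe (A_51_P193612), with 0.87 to 1.12 in WT and 0.80 to 1.09 in SIRT1 KO hearts, it was 0.01 (limma adjusted p = 0.961), and the sign was negative with normexp (-0.0087), apart from the scalings that lower all probes alike.

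*Myh11*, the smooth muscle isoform, was the member with the lowest log2 fold change. Its probe (A_51_P362429) gave -1.47, -1.15, -1.34 and -1.29 in WT and -1.47, -1.41, -1.72 and -1.60 in the hearts labelled SIRT1 KO. The genotypes overlapped through WT replicate 1, and the log2 fold change was -0.24 (SE 0.10, 95% confidence interval -0.46 to -0.01, limma adjusted p = 0.207). It passed with median scaling (-0.37, limma adjusted p = 0.0467) and with no scaling (-0.46, limma adjusted p = 0.037), 2 settings that lower all probes alike. Of 9 other smooth muscle contractile genes 8 were lower and 0 passed, with 0 at an unadjusted p under 0.05 and a median log2 fold change of -0.08. The smallest p among them was that of *Synpo2*, an actin-binding protein, at -0.10 (SE 0.11, limma adjusted p = 0.629).

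**Figure D3:**
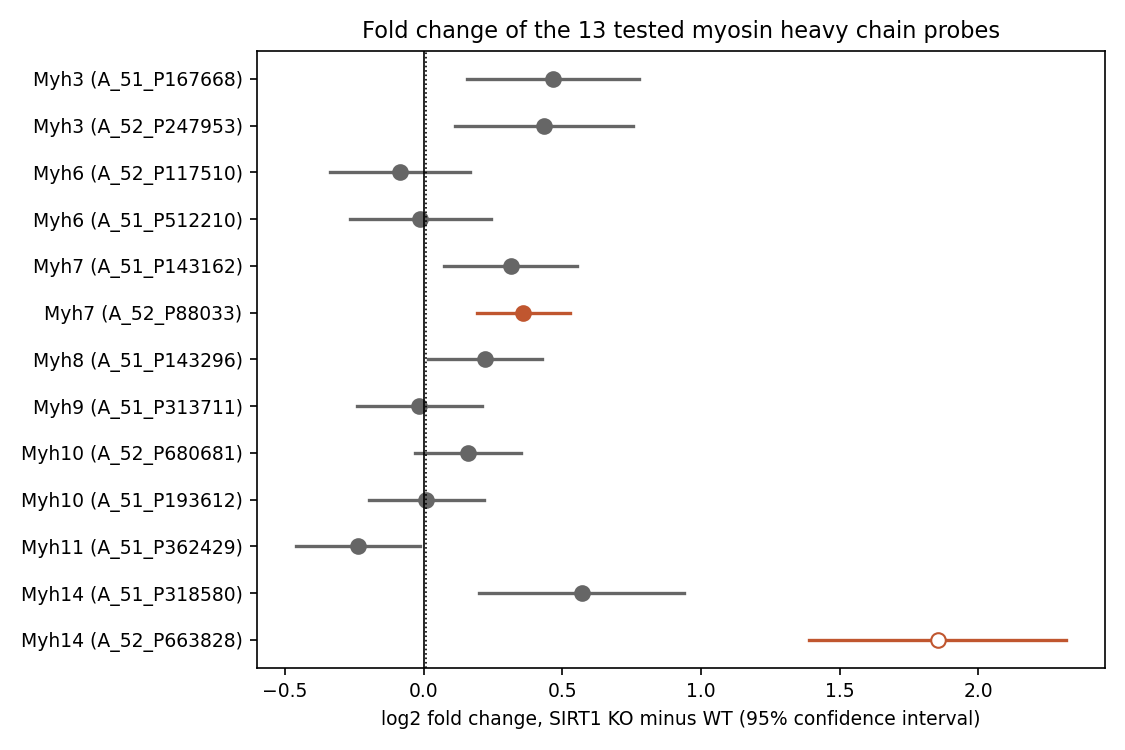
Log2 fold change, SIRT1 KO minus WT, of the 13 tested myosin heavy chain probes with the 95% confidence interval from limma; orange marks an adjusted p under 0.05, the open circle a probe at background in all WT hearts, whose fitted value is no size, and the dotted line the median of all probes (0.01). *Myh11* lies lowest at -0.24 and the intervals of *Myh6*, *Myh9* and *Myh10* include 0.

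The partners of the heavy chains were read from lists of genes. None of 10 tested myosin light chains passed (0 at an unadjusted p under 0.05), with a median log2 fold change of -0.11, where 21.5% of all probes tested had an unadjusted p under 0.05. The smallest p among them was that of *Myl2*, the ventricular regulatory chain, at 0.23 (SE 0.12, limma adjusted p = 0.297). Of 12 tested thick filament partners 6 were higher and 6 lower, and 4 had an unadjusted p under 0.05. The threshold was passed by 4.88% of all probes tested and by 1 of these 12. This was *Trim55*, a muscle ubiquitin ligase that binds titin, whose log2 signal was 1.47 ± 0.26 in WT and 3.13 ± 0.57 in the hearts labelled SIRT1 KO (SD, n = 4), a log2 fold change of 1.66 (SE 0.26, limma adjusted p = 0.00895).

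For the next 2 lists the shares to compare are those of all probes tested, 21.5% at an unadjusted p under 0.05 and 4.88% past the threshold. Of 8 tested genes of myosin folding 5 were higher and 2 had an unadjusted p under 0.05. The 1 that passed was *Smyd1*, a muscle methyltransferase that helps thick filament assembly, which rose by 0.41 (SE 0.10, limma adjusted p = 0.0432). Its other probe stood at 0.34 (limma adjusted p = 0.0859). Among 19 tested partners of nonmuscle myosin, with a median of 0.02 and 5 at an unadjusted p under 0.05, *Flna*, the actin cross-linker filamin A, rose by 0.34 on its brightest probe (limma adjusted p = 0.0406). Its 2 other probes gave 0.81 (limma adjusted p = 0.0164) and 0.06 (limma adjusted p = 0.671).

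Of 23 tested regulators known to act on the heart myosin genes 9 were higher and 14 lower, with a median of -0.04 and 5 at an unadjusted p under 0.05. Of all probes tested 21.5% had such a p and 4.88% passed the threshold, so these counts are no result about the regulators. The 1 regulator that passed was *Dio2*, the deiodinase that makes active thyroid hormone, which fell by 0.80 on the log2 scale (SE 0.13, limma adjusted p = 0.00839). Of 7 tested isoform genes that mark fetal against adult heart muscle none passed (1 at an unadjusted p under 0.05), with a median of 0.01. The smallest p was that of *Acta1*, skeletal α-actin, at 0.36 (SE 0.10, limma adjusted p = 0.0912). Chamber markers stood beside the heart isoforms with 0 of 6 atrial and 0 of 6 ventricular genes past the threshold (0 at an unadjusted p under 0.05 in both). Their median log2 fold changes were -0.22 and 0.13, and their part in the *Myh7* difference was not tested.

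Genes whose log2 signals followed a heart isoform most closely over the 8 hearts were listed as a description, and any difference between the genotypes is part of the likeness. For *Myh7* they were *Fbxl17*, *Rps4x*, *Wdr45b*, *Zfp345* and *Tmem59*, with Pearson's r from 0.96 to 0.95 and log2 fold changes from 0.11 to 0.64. For *Myh6* they were *Apeh*, *Aars2*, *Gys1*, *Acaa1a* and *Prkab1* (r from 0.96 to 0.92), and for *Myh11* *Hs6st2*, *Nfatc3*, *Pcsk5*, *Zfp84* and *Adcy1* (r from 0.99 to 0.97).

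**Figure D4:**
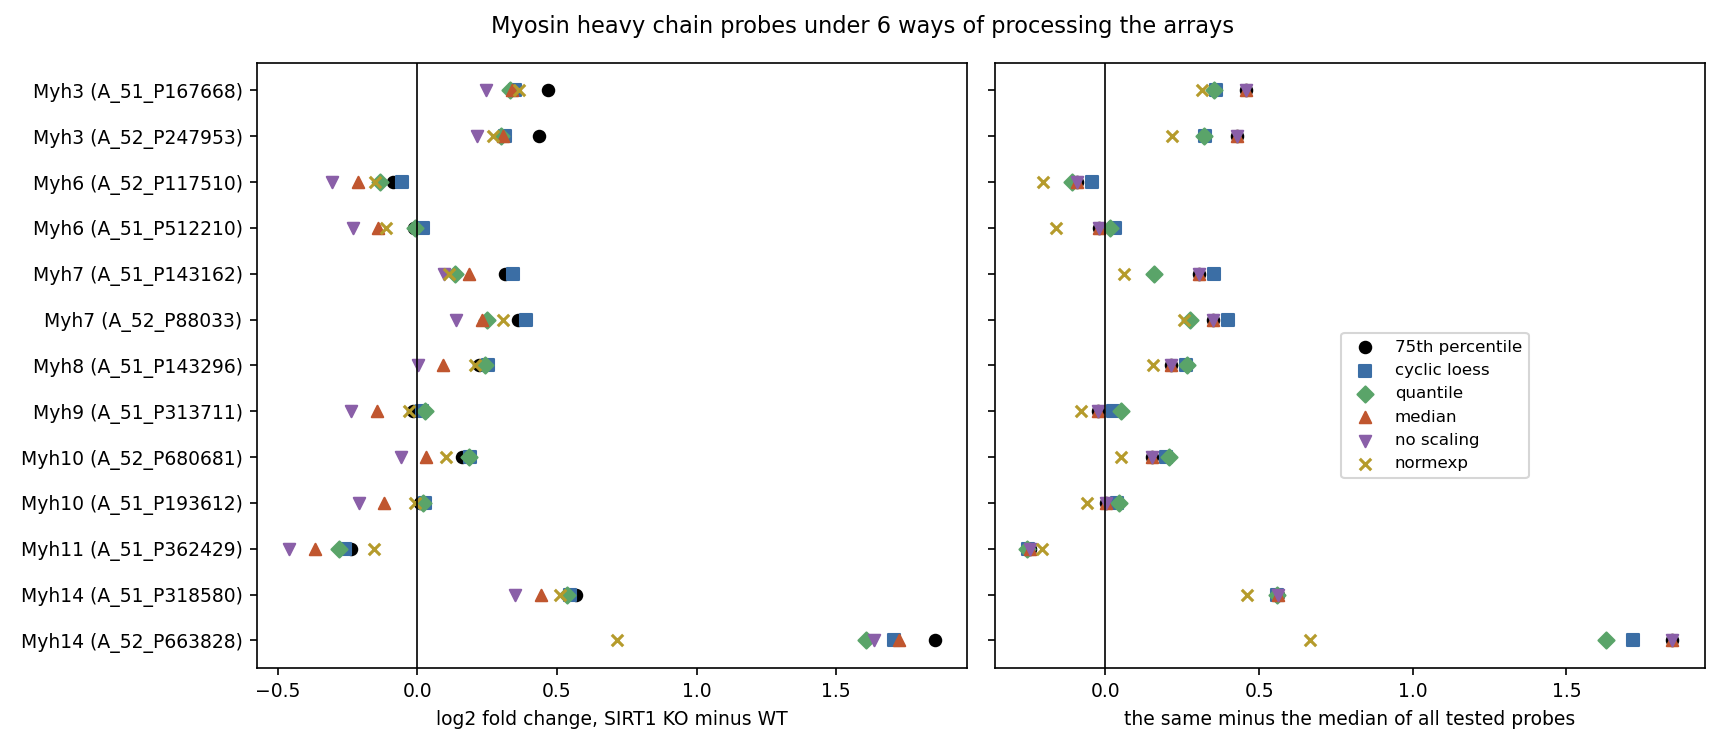
Log2 fold change, SIRT1 KO minus WT, of the 13 tested myosin heavy chain probes with the 75th percentile, 4 other scalings (none included) and normexp background correction, as fitted (left) and minus the median of all tested probes in the same fit (right). The values with no scaling lie lowest for most probes on the left, while on the right the 75th percentile, the median and no scaling fall together by construction. On the right *Myh7*, *Myh3*, *Myh14*, *Myh8* and the brighter *Myh10* probe lie above 0 in all 6. *Myh11* and the brighter *Myh6* probe lie below it in all 6, and the other probes lie on both sides.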

How the data were processed

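Total RNA (500 ng) of each heart was labelled with Cy3 and hybridized to 1 array. The authors deposited, per array, the intensity of each spot from Agilent Feature Extraction (version 12.0.0.7 in the file headers, 12 in the submitters' processing notes), background-subtracted and not scaled between arrays. A deposited value table of the series equals it in 100% of spots, within a relative tolerance of 1e-05. Here log2 intensity minus the log2 of the 75th percentile over all non-control spots of the array was computed, outlier-flagged spots were left out and spots of a probe averaged. Accessions were matched to RefSeq names (GRCm38.p6), which named 28223 of 41174 probes (68.5%). The share of probes well above background ran from 59.5% to 64.9%, and 0 probes were saturated. Precision is limited by having 4 arrays of each genotype.

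The test was limma 3.58.1 (lmFit and eBayes, no covariates, R 4.3.3) on the 25615 probes that stood well above background on 4 or more arrays, with Benjamini-Hochberg adjustment over all of them at 0.05. The fit was tested on simulated data. Exact permutation tests used scipy 1.17.1 in Python 3.11.15, and plots matplotlib 3.10.9. Of a gene's probes, the one with the highest mean signal represents it in lists. All 9 listed genes were named with every probe, and of each list the members past the threshold or, if none, the one with the smallest p, and the 5 genes most correlated with *Myh6*, *Myh7* and *Myh11*. The members and lists were chosen with earlier results of these data known. Alternatives covered background correction (normexp with an offset of 50 on the median spot signal), scaling, filter, test, array weights, replicate block, source of the values, probe of the gene and each heart left out.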

Additional observations from a re-analysis of the deposited data

Results flagged for a closer look

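Of 28 groups of 4 hearts checked for a single value far from the others, 3 held one, where chance alone would mark about 1 group in 20. In the *Myh3* brighter probe SIRT1 KO replicate 3 had a log2 signal of -3.72, with the other SIRT1 KO hearts between -3.44 and -3.41. In the *Myh6* brighter probe WT replicate 2 stood at 7.46, below the other WT hearts at 7.80 to 7.86. In *Myh7* minus *Myh6* SIRT1 KO replicate 2 had 0.80, with the other SIRT1 KO hearts between 1.09 and 1.11. Without that heart the *Myh7* minus *Myh6* difference between the genotypes was 0.47, and without WT replicate 2 it was 0.48 (exact permutation p = 0.0571 in both, the smallest that 4 against 3 hearts can give). No cause was tested for any of the 3.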

How the results depend on the processing

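Over the 13 tested probes, 214 of 250 values under an alternative kept their direction and their side of the threshold, 11 lost the threshold, 8 gained it and 17 turned sign, all 17 in *Myh6*, *Myh9* or *Myh10* probes that passed in no alternative. The deposited value table equals the main input, so its values could not differ. The filters, the analysis of variance and the replicate block keep the log2 fold change, so there only the threshold could move. The second *Myh6* probe turned to 0.022 with cyclic loess and ranged from -0.078 to 0.070 with 1 heart left out. *Myh9* turned to 0.029 with quantile normalization, 0.017 with cyclic loess and 0.030 with array weights (-0.074 to 0.059 with 1 heart left out). The brighter *Myh10* probe turned to -0.059 without scaling, and the second to -0.0087 with normexp, -0.12 with median scaling and -0.21 without scaling (-0.025 to 0.075 with 1 heart left out). Median scaling and no scaling shift all probes alike, and measured from the median of all probes these *Myh10* values stayed at 0.15 and 0.0020. The 1250 probes past the threshold became 2380 with normexp, 6352 without scaling, 546 with the methods' analysis of variance (5137 at an unadjusted p under 0.05), 2277 with array weights and 686 genes with the mean over a gene's probes, and ran from 658 (SIRT1 KO replicate 1 left out) to 1744 (SIRT1 KO replicate 3 left out). The share of higher calls moved with the scaling, from 1017 of 1250 to 680 of 1784 with median scaling and 639 of 6352 without scaling. Of the myosin heavy chain probes 4 passed with normexp, 5 with array weights, 8 in the analysis of variance at an unadjusted p under 0.05, 1 with quantile normalization, 1 without a filter, 1 among probes above background on all 8 arrays, and 0 to 1 with 1 heart left out (0 without SIRT1 KO replicate 1 or 2). *Myh7* minus *Myh6* was 0.38 with the mean over each gene's probes (exact permutation p = 0.0286), 0.27 with normexp (exact permutation p = 0.0857) and 0.32 to 0.48 with 1 heart left out. With the replicate number as a block 1185 probes passed, 1 of them a myosin heavy chain probe (the second *Myh7* probe had an adjusted p of 0.059), and *Myh7* minus *Myh6* had an exact sign-flip p of 0.25 (4 pairs cannot go under 0.125). After each genotype's mean was taken off every probe, same-numbered hearts correlated with r of 0.20, 0.21, 0.06 and 0.14. Each heart correlated best with its own number, a hint of pairing from the data and not from the design. The cause of these shifts was not tested. Of the tested probes those of *Myh3* and the second of *Myh14* lie closest to background, which limits their precision.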
